A study of Mus musculus with 6 samples.

Results

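Trp53, which encodes the transcription factor p53, was examined together with its inhibitor Mdm2 and 8 of its direct target genes, Cdkn1a, Aen, Sesn1, Ccng1, Gdf15, Phlda3, Zmat3 and Trp53inp1. The genes were taken by symbol from a count table of 54532 genes, in which each of the 10 symbols occurred once. All 10 had enough counts to be tested, among 16844 tested genes. RNA was sequenced in 6 libraries from cells labelled NIT-1, a line derived from a mouse insulinoma, which stands in for the pancreatic beta cell. The group called EV_Tm here (3 libraries) was given hucMSC-EVs for 16 h, which are extracellular vesicles shed by mesenchymal stem cells of human umbilical cord. The group called PBS_Tm (3 libraries, titled ERS by the submitters) was given PBS for the same time. Both groups then had 8 h of Tm, read here as tunicamycin, which blocks N-linked glycosylation and stresses the endoplasmic reticulum (ER). A treatment label of the PBS_Tm samples calls them not treated, whereas the design text, which was followed, gives Tm to both groups. All libraries analysed here had Tm by that text, so an effect of the vesicles on the response to Tm and one apart from it cannot be told apart. NIT-1 was established from a tumour of a NOD mouse that carries the SV40 large T antigen under an insulin promoter, and large T antigen binds p53. Neither protein was measured here. Beta cell markers, insulin transcripts among them, were near absent in these libraries (below). Whether these cells carry large T antigen was not tested.

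p53 is a short-lived protein that is stabilised after DNA damage and other stress, and it then switches on genes for cell cycle arrest, repair, death and its own control. Mdm2 is both its target and the ubiquitin ligase that degrades it, which closes a negative feedback loop. Much of p53's control lies in its protein, so its mRNA and the mRNA of its targets need not move together. Gdf15 differs from the other targets in that it is also switched on by ATF4 and CHOP, the transcription factors of the PERK branch of the ER stress response.

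The libraries held 28654248 to 32550268 counts. The defining markers of the labelled cell type, the beta cell, were near absent. Ins2 had 0 counts in all 6 libraries and Ins1 had 1 count in all. Of 12 beta cell markers, 7 were at 0 in every library, and their summed level was 0.130 to 0.434 CPM (counts scaled to the library's total) in PBS_Tm and 0.283 to 1.05 CPM in EV_Tm, with Slc2a2 the most abundant. A count of 0 allows up to 3 counts, which is 0.0922 to 0.105 CPM and covers counting error only. The other marker lists summed to at most 24.9 against at most 21.1 CPM for other islet endocrine cells (PBS_Tm against EV_Tm, mostly Hhex), to 626 to 639 against 698 to 749 for mesenchymal cells (mostly Vim), 61.3 to 63.0 against 80.8 to 83.7 for epithelium and duct (mostly Sox9), 2.77 to 4.65 against 4.71 to 6.49 for leukocytes (mostly Cd68) and 31.24 to 33.5 against 29.5 to 31.17 for endothelium (mostly Pecam1). At 0 in every library were Sst, Krt19 and Kdr. None of these 5 sums overlapped between the groups, while the beta cell sums did. Of all tested genes taken singly, 54.5% did not overlap either. The gaps were narrow for leukocytes (4.65 against 4.71) and endothelium (31.24 against 31.17). The part of these sums in the results below was not tested. Within the mesenchymal list, 2 of 5 tested genes rose (Vim and Col3a1) and 2 fell (Pdgfrb with a log2 fold change of -1.54 and Col1a1 with -0.77). Within the other islet endocrine list, 1 of 3 tested genes fell, 0 rose and 2 did not pass (log2 fold changes from -0.24 to 0.53, median 0.26). Within the endothelial list, 1 of 3 fell, 0 rose and 2 did not pass (-0.25 to 0.37). For epithelium and duct 1 of 2 tested genes rose, and for leukocytes the 1 tested gene rose. By the same edgeR test, given below, 22.6% of all tested genes rose and 24.7% fell.

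The promoter sequences are shown because p53 reads a DNA motif of its own while ATF4 and CHOP read another, and the target that both control is set apart below. RefSeq windows (GRCm38.p6, 250 bases before to 50 after a start of transcription) were found for 8 of the 10 genes. They numbered 12, since some genes have more than 1 start. The p53 decamer, of which a full binding site holds a pair, was present in a window of 6 of these 8 genes (Trp53, Mdm2, Cdkn1a, Aen, Sesn1 and Ccng1), and in a window of 9.55% of 27025 genes. It reads the same on both strands. The window of Phlda3 ends in gaacatgt, which fits the decamer up to the window's edge, where the search stops. Of the 12 windows, that of Phlda3 alone held bases after its start that were not found in an annotated transcript of the gene. The window at the outermost start of Cdkn1a held 2 decamers with 12 bases between them. Its other window (chr17:29093519-29093818) held 0, as did another window of Sesn1 (chr10:41810324-41810623). The search took exact matches only. In the Cdkn1a window with 2 decamers, the downstream decamer is followed directly by tgacatgttc, which differs from the searched letters at 1 base and was not marked. TGATGNAA is the core of the composite site for C/EBP and ATF factors, and TGACGTGG that of the unfolded protein response element (UPRE). Neither occurred on either strand in a window of these 8 genes. Of all 32851 windows 3.97% held the first and 0.676% the second. Other motifs of the ER stress response were not searched. A match is a description of these letters, not a measured site. The 250 bases before the outermost start of Cdkn1a (chr17:29090729-29090978, plus strand) and of Gdf15 (chr8:70632457-70632706, minus strand) are given 5′ to 3′, followed by 30 bases around the decamer of 5 other genes, with decamers in capitals.
Cdkn1a: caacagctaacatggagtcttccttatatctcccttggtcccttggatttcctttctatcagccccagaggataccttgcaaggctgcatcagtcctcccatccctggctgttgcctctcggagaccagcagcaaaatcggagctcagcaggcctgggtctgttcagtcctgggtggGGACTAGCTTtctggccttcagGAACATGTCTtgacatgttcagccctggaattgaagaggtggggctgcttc
Gdf15: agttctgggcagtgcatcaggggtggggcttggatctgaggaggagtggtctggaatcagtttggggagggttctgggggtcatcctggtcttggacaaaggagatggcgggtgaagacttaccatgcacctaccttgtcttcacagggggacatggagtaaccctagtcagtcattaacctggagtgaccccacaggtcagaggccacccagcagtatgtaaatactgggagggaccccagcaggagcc
Trp53 (chr11:69580274-69580303, plus strand): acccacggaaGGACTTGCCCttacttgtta
Mdm2 (chr10:117710925-117710954, minus strand): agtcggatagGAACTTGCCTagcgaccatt
Aen (chr7:78895927-78895956, plus strand): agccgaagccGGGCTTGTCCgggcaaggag
Ccng1 (chr11:40755452-40755481, minus strand): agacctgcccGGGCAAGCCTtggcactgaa
Sesn1 (chr10:41887256-41887285, plus strand): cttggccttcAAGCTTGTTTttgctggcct

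Most of the 9 genes under p53 had lower mRNA levels in cells given vesicles, while the mRNA of p53 itself was slightly higher. Of the 10 genes, 8 fell and Trp53 and Sesn1 rose (edgeR quasi-likelihood test, adjusted p under 0.05 over all tested genes). Over all tested genes, 24.7% were called lower, 22.6% higher and 47.4% in either direction, so that a call alone sets no gene apart here. The groups did not overlap in any of the 10 genes, as in 54.5% of all tested genes. The median log2 fold change (EV_Tm minus PBS_Tm throughout) was -0.53 over the 10 genes and 0.01 over all tested genes. With a fold of at least 1.5 as well, 3 of the 10 genes were lower, which were Gdf15, Phlda3 and Aen, and 0 were higher. Of all 16844 tested genes, 2476 passed at that fold in either direction. In bulk RNA, fewer cells that make a transcript and less of it in each cell cannot be told apart. Nothing in the labels says that a group's 3 libraries are from separate cultures, so p-values measure the spread between these libraries, which may be technical.

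**Figure D1:**
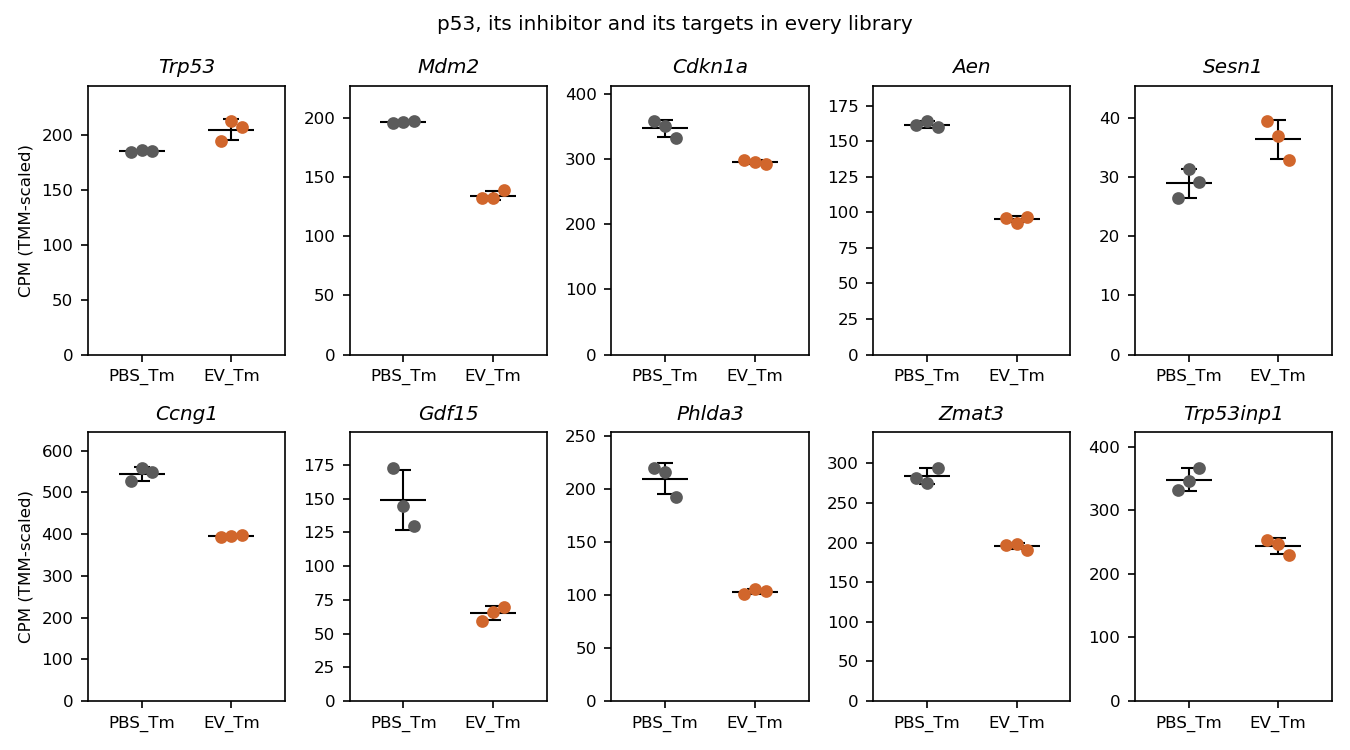
Level of each gene in every library (vertical axis, CPM scaled by TMM factors, from 0), with PBS_Tm in grey and EV_Tm in orange; points are libraries, and the line and bars are the mean and SD of 3. The groups are apart in all 10 panels, with EV_Tm above PBS_Tm for Trp53 and Sesn1 and below it for the other 8 genes.

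The regulator and its inhibitor moved in opposite directions. Trp53 (ENSMUSG00000059552, chromosome 11, 69580359 to 69591873; coordinates from the deposited table, on GRCm38) stood at 185, 187 and 185 CPM in PBS_Tm replicates 1 to 3 and at 195, 213 and 207 CPM in EV_Tm. Its PBS_Tm libraries lay within a narrow band (SD 0.935 CPM), while EV_Tm replicate 1 was the library nearest to it. The difference was 1.10-fold (log2 fold change 0.14 ± 0.04, SE, edgeR adjusted p = 0.00722). This is the least secure of the 10 calls, since without EV_Tm replicate 2 the log2 fold change was 0.11 with an adjusted p of 0.0876 in edgeR. A processed pseudogene, Trp53-ps, took 582 counts in all 6 libraries, against 36363 for Trp53, and how the counting divided reads between the pair is not given in the sources used here.

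Mdm2 (ENSMUSG00000020184, chromosome 10, 117688875 to 117710758) stood at 196, 197 and 198 CPM in PBS_Tm and at 132, 132 and 139 CPM in EV_Tm. Every EV_Tm library was therefore well below every PBS_Tm library. The transcript was 1.46-fold lower (log2 fold change -0.55 ± 0.04, SE, edgeR adjusted p = 7.47e-11). Set against Trp53 in the same library, the log2 ratio of Mdm2 to Trp53 in CPM was 0.08, 0.08 and 0.09 in PBS_Tm and -0.56, -0.68 and -0.58 in EV_Tm. The shift of this ratio was -0.69 on the log2 scale and far exceeded the spread between libraries, although an exact two-sided permutation test of 3 against 3 cannot go below its p of 0.10.

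Of the genes that act on the cell cycle, Cdkn1a changed least among the targets that fell. It encodes p21, the inhibitor of cyclin-dependent kinases through which p53 arrests cells. Cdkn1a (ENSMUSG00000023067, chromosome 17, 29090976 to 29100727) stood at 358, 350 and 332 CPM in PBS_Tm and at 298, 296 and 292 CPM in EV_Tm. The groups were apart, but the drop was only 1.17-fold (log2 fold change -0.23 ± 0.04, SE, edgeR adjusted p = 2.85e-05), and 27.8% of tested genes had a lower log2 fold change. A gene on the opposite strand, AC167363.2, overlaps Cdkn1a and had 0.723% of its counts. Ccng1 (ENSMUSG00000020326, chromosome 11, 40748552 to 40755311) encodes cyclin G1, which brings a phosphatase to Mdm2. It stood at 527, 559.5 and 548 CPM in PBS_Tm and at 393, 395 and 399 CPM in EV_Tm, so the 3 EV_Tm libraries were nearly level (SD 2.95 CPM). Ccng1 was 1.38-fold lower (log2 fold change -0.46 ± 0.04, SE, edgeR adjusted p = 1.70e-10).

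Phlda3 and Aen had the largest falls after Gdf15. Phlda3 (ENSMUSG00000041801, chromosome 1, 135766119 to 135769136) encodes a small lipid-binding protein that keeps the survival kinase AKT from the membrane. It stood at 220.5, 216 and 193 CPM in PBS_Tm and at 101, 106 and 103 CPM in EV_Tm. PBS_Tm replicate 3 was the lowest of its group and still far above the EV_Tm libraries. Phlda3 was 2.03-fold lower (log2 fold change -1.02 ± 0.05, SE, edgeR adjusted p = 1.04e-14). Aen (ENSMUSG00000030609, chromosome 7, 78895854 to 78911209), a nuclease that cuts DNA in apoptosis, stood at 161, 164 and 160 CPM in PBS_Tm and at 96.3, 92.6 and 96.6 CPM in EV_Tm. It was 1.70-fold lower, with little spread inside either group (log2 fold change -0.77 ± 0.04, SE, edgeR adjusted p = 3.11e-13).

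A stress protein and an RNA regulator fell by similar amounts. Trp53inp1 (ENSMUSG00000028211, chromosome 4, 11156431 to 11174379), a nuclear stress protein that also acts in autophagy, stood at 331, 346 and 367 CPM in PBS_Tm and at 254, 247 and 229 CPM in EV_Tm. It was 1.43-fold lower, with groups that did not overlap (log2 fold change -0.52 ± 0.05, SE, edgeR adjusted p = 8.15e-10). Zmat3 (ENSMUSG00000027663, chromosome 3, 32334792 to 32366014), a zinc finger protein that binds RNA and alters splicing and mRNA stability, stood at 281, 275 and 295 CPM in PBS_Tm and at 197, 198 and 191 CPM in EV_Tm. It was 1.45-fold lower, close to Mdm2 in size (log2 fold change -0.54 ± 0.04, SE, edgeR adjusted p = 6.45e-11).

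Sesn1 was the only target that rose. It encodes a sestrin, a stress protein that restrains mTORC1, and it was the least abundant of the 10 genes. Sesn1 (ENSMUSG00000038332, chromosome 10, 41809935 to 41908424) stood at 26.4, 31.3 and 29.1 CPM in PBS_Tm and at 39.5, 36.9 and 32.9 CPM in EV_Tm. The lowest EV_Tm library lay just above the highest PBS_Tm library. The rise was 1.26-fold (log2 fold change 0.33 ± 0.08, SE, edgeR adjusted p = 0.00121), and over the alternatives without a fold minimum the adjusted p stayed at or under 0.0175. The transcript 9930024M15Rik overlaps it on the same strand and had 0.724% of its counts.

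**Figure D2:**
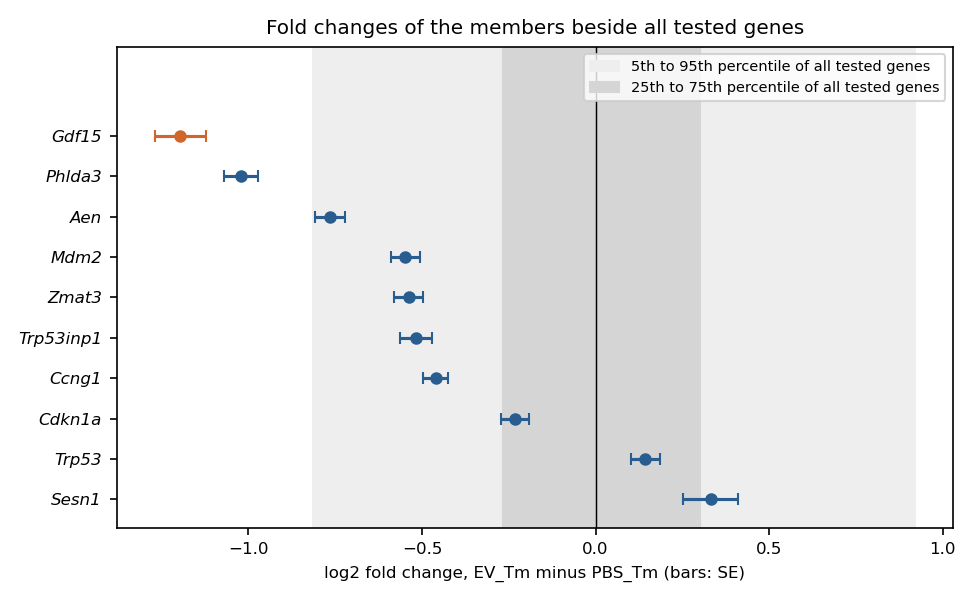
Log2 fold change of each gene (horizontal axis, EV_Tm minus PBS_Tm, with SE bars; Gdf15 in orange), over bands of the middle 50% and middle 90% of all tested genes. Gdf15 and Phlda3 lie below the 5th percentile of all tested genes (-0.81), while Cdkn1a and Trp53 lie inside the range from -0.27 to 0.30 that holds the middle of them.

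Gdf15, a secreted stress cytokine, had the largest fall of the 10 genes and, in PBS_Tm, the largest spread relative to its mean. Gdf15 (ENSMUSG00000038508, chromosome 8, 70629393 to 70632456) stood at 173, 144 and 129.6 CPM in PBS_Tm and at 59.4, 65.8 and 69.9 CPM in EV_Tm. PBS_Tm replicate 1 was high for its group, and the groups were apart with or without it. The coefficient of variation in PBS_Tm was 14.8%, against 0.477% for Mdm2 and 7.03% for Phlda3. Gdf15 was 2.29-fold lower (log2 fold change -1.20 ± 0.07, SE, edgeR adjusted p = 1.42e-12), and only 2.16% of tested genes had a lower log2 fold change. Without PBS_Tm replicate 1 the log2 fold change was -1.08, and the call held.

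The target shared with ATF4 and CHOP was then set against the 8 others, with Mdm2 counted among them. In each library the mean log2 CPM of the 8 was taken from that of Gdf15. This difference was -0.25, -0.55 and -0.68 in PBS_Tm and -1.36, -1.20 and -1.08 in EV_Tm. Relative to the others, Gdf15 was thus 0.72 lower on the log2 scale in EV_Tm, more than the SD between libraries of 0.22 in PBS_Tm and 0.14 in EV_Tm. These SDs do not measure the spread between genes. The log2 fold changes of the 8 others ran from -1.02 (Phlda3) to 0.33 (Sesn1). Whether a shared target differs from other targets was not tested.

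Taken pair by pair, Gdf15 lost ground to 7 of the 8 targets with no overlap between groups, and not to Phlda3. Only 2.16% of tested genes had a lower log2 fold change than Gdf15, so its ratio to most genes shifts down. A downward shift is thus not particular to these 7. The share of all tested genes whose ratio to Gdf15 keeps the groups apart was not counted. The log2 ratio of Gdf15 to Sesn1 shifted by -1.52, to Cdkn1a by -0.96, to Ccng1 by -0.73, to Trp53inp1 by -0.67, to Zmat3 by -0.65, to Mdm2 by -0.64 and to Aen by -0.42. For these 7 the exact two-sided permutation p was 0.10, the smallest that 3 against 3 libraries allow, and 0.114 after Benjamini-Hochberg adjustment over the 8 pairs, so none could pass a threshold of 0.05. The ratio of Gdf15 to Phlda3 was -0.35, -0.58 and -0.57 in PBS_Tm and -0.77, -0.68 and -0.57 in EV_Tm. These overlapped, and the shift of -0.17 did not exceed the spread (exact permutation p = 0.30, also after adjustment). Without PBS_Tm replicate 1, the mean difference from the 8 others was -0.60 in place of -0.72.

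**Figure D3:**
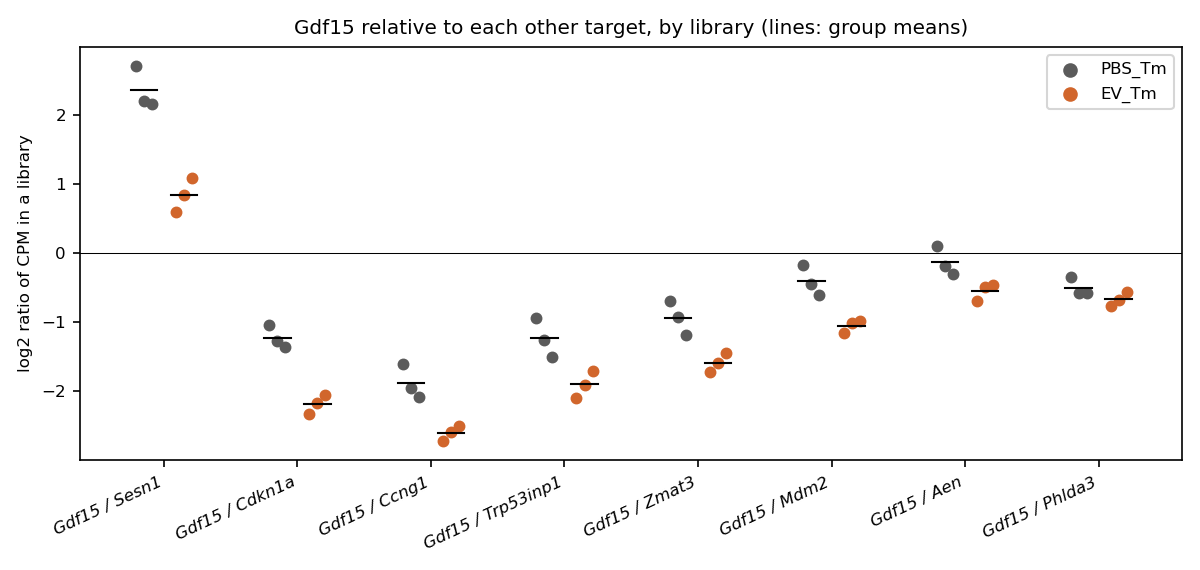
Log2 ratio of the CPM of Gdf15 to that of each of 8 other genes in every library (vertical axis), PBS_Tm in grey and EV_Tm in orange, with lines at the group means. The groups are apart for 7 genes, most of all for Sesn1, and overlap for Phlda3.

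Levels were compared between genes only per length, as CPM per kb of the deposited gene length. In PBS_Tm, Ccng1 was the most abundant at 155 ± 5 CPM per kb (SD, n = 3), followed by Phlda3 (135 ± 9), Cdkn1a (97.6 ± 3.8), Gdf15 (80.5 ± 11.9), Trp53inp1 (53.7 ± 2.8), Trp53 (45.9 ± 0.2), Mdm2 (38.7 ± 0.2), Aen (27.9 ± 0.4), Zmat3 (24.8 ± 0.9) and Sesn1 (7.27 ± 0.62). Only the neighbours Cdkn1a and Gdf15 overlapped. In EV_Tm, Ccng1 was still the highest at 113 ± 1 CPM per kb and Sesn1 the lowest at 9.15 ± 0.83. Trp53 now stood above Trp53inp1 and Gdf15, at 50.6 ± 2.3 against 37.6 ± 2.0 and 35.1 ± 2.9 CPM per kb, and the last pair overlapped. Cdkn1a (83.1 ± 0.9) had passed Phlda3 (66.3 ± 1.5), and Zmat3 (17.1 ± 0.3) stood above Aen (16.4 ± 0.4).

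The paralogues of these genes did not all follow them. Sesn2, the sestrin that ATF4 induces, fell by 0.73 ± 0.05 on the log2 scale (SE; 141 ± 10 to 84.8 ± 3.1 CPM, SD, n = 3 each), the opposite direction to Sesn1, while Sesn3 did not pass (-0.14 ± 0.06, edgeR adjusted p = 0.0525). Ccng2, a cyclin G that restrains proliferation, was 1.95-fold higher (27.4 ± 0.5 to 53.5 ± 0.7 CPM), opposite to Ccng1. Cdkn1b, the CDK inhibitor p27, was 1.33-fold higher (185 ± 10 to 246 ± 8 CPM), opposite to Cdkn1a. Mdm4, which binds p53 beside Mdm2, fell by 0.20 ± 0.04 on the log2 scale, and Zmat2, a splicing factor, was 1.24-fold higher. Phlda1 (-0.15 ± 0.09), Zmat1 (-0.20 ± 0.09), Zmat5 (0.16 ± 0.13), Trp53inp2 (-0.01 ± 0.05) and Trp63 (0.42 ± 0.59) did not pass. Of the 15 paralogues, Trp73, Cdkn1c, Phlda2 and Zmat4 had too few counts to be tested.

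Other known p53 targets were more often called lower than higher. Of 41 such genes, 37 were tested, of which 19 fell, 6 rose and 12 did not pass (median log2 fold change -0.26, against 0.01 for all tested genes and 24.7% of them called lower and 22.6% higher). With an adjusted p under 0.01 in edgeR, 4 of the 37 were higher and 19 lower. Among genes of arrest, repair and nucleotide supply, 7 of 16 fell, Pml, Ddb2 and Sfn rose and 6 did not pass (median -0.23). Sfn was low and close to the threshold (2.94 ± 0.43 to 4.15 ± 0.79 CPM, SD, n = 3 each, edgeR adjusted p = 0.0416). Gadd45a, a stress protein of arrest and repair, was 4.03-fold lower (35.3 ± 3.4 to 8.74 ± 0.94 CPM, SD, n = 3 each). Zfp365, a protein of genome stability, went from 82.1 ± 2.9 to 41.0 ± 2.4 CPM; Rrm2b, the p53-dependent subunit of ribonucleotide reductase, was 2.08-fold lower and Polk, a translesion polymerase, 1.75-fold lower.

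Among the death genes, 4 of 8 tested fell, 0 rose and 4 did not pass (median log2 fold change -0.25), where 24.7% of all tested genes were called lower and 22.6% higher. Eda2r, a death receptor of the TNF receptor family, was 1.73-fold lower (144 ± 9 to 82.9 ± 2.5 CPM), Tnfrsf10b, the TRAIL receptor, 1.45-fold lower, Bbc3, which encodes PUMA, 1.32-fold lower and Dram1, a lysosomal protein, 1.31-fold lower. Bax, the pore-forming BCL2 family member, did not pass (log2 fold change -0.10 ± 0.06, SE; edgeR adjusted p = 0.156). Fas and Perp had 0 counts in all 6 libraries and Pmaip1, which encodes NOXA, 2 counts in PBS_Tm replicate 3 alone, so these classical targets were not detectable at this depth. Trp73 had 0 to 18 counts per library. These 4 genes and Bax were named after their values were seen. Among 13 targets in metabolism, redox and growth signalling, 8 fell and Abhd4, Fdxr and Pltp rose, against the same shares of all tested genes (median -0.30). Rchy1, a ubiquitin ligase for p53, was 2.19-fold lower (74.5 ± 5.2 to 34.0 ± 1.7 CPM), and Slc19a2, a thiamine transporter, 1.54-fold lower.

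Targets that ATF4 or CHOP also control fell without exception among those tested. These were Gadd45a, Gdf15, Sesn2, Ddit4, Tnfrsf10b and Bbc3, with log2 fold changes from -2.01 to -0.40 (median -0.70), and Pmaip1 was the only one of the 7 not tested. Ddit4, an inhibitor of mTORC1, was 1.58-fold lower (271 ± 22 to 171 ± 2 CPM). Of the 32 tested p53 targets outside the 10 genes that are not on that list, 14 fell, 6 rose and 12 did not pass (median -0.19, range -1.13 to 0.50). Of all tested genes 24.7% were called lower and 22.6% higher, and the share of these 32 that rose lies near the latter. The ranges of both lists overlap, and the difference between the lists was not tested. These lists, like the others here, were chosen with earlier results of these data known, so their directions are no independent evidence. Atf3, which ATF4, CHOP and p53 are known to induce, was not put among the 7 and had too few counts to be tested.

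The genes of ATF4 and CHOP and of their other targets were nearly all lower. Of 17 tested genes, 16 fell and Vldlr rose (median log2 fold change -1.02, with 24.7% of all tested genes called lower). Ddit3, which encodes CHOP, fell by 2.91 ± 0.05 on the log2 scale (SE; 301 ± 4 to 40.2 ± 1.1 CPM, SD, n = 3 each), and the log2 fold changes of Trib3, Nupr1 and Ppp1r15a were -2.15 ± 0.05, -2.28 ± 0.07 and -2.14 ± 0.06. Trib3 encodes a pseudokinase that CHOP induces, Nupr1 a stress cofactor of transcription and Ppp1r15a the phosphatase subunit GADD34. The list shares Sesn2 and Ddit4 with the p53 targets.

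**Figure D4:**
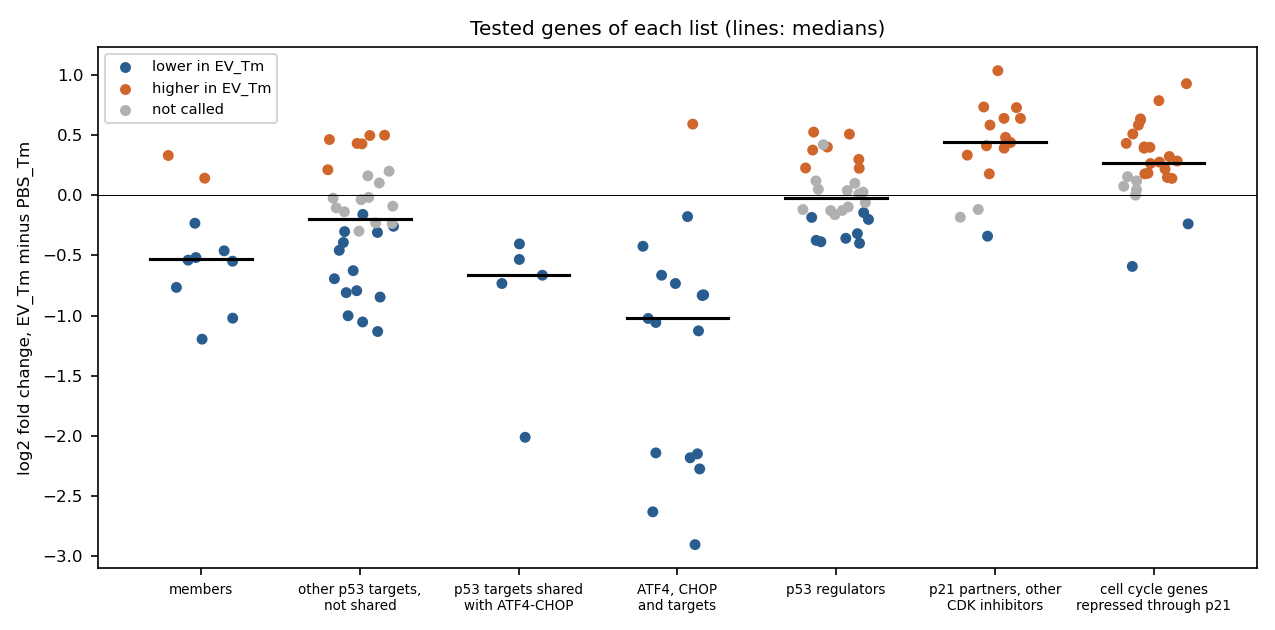
Log2 fold change (vertical axis, EV_Tm minus PBS_Tm) of every tested gene in 7 lists, with black lines at the medians; blue and orange mark genes called lower and higher, grey those not called. The 5 shared p53 targets other than Gdf15 are all below 0, the other p53 targets spread from -1.13 to 0.50, and the cell cycle lists lie mostly above 0.

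Genes that act on p53 had no common direction. Of 28 tested genes that modify, stabilise, degrade or bind p53, 7 rose, 8 fell and 13 did not pass (median log2 fold change -0.02), which is near the 22.6% higher and 24.7% lower of all tested genes. Rpl11, a ribosomal protein that binds and restrains Mdm2, was 1.44-fold higher (312 ± 14 to 449 ± 13 CPM, SD, n = 3 each), whereas Rpl5, its partner in this role and a gene named after its value was seen, did not pass (log2 fold change 0.03 ± 0.04, SE; edgeR adjusted p = 0.559). Hipk2, a kinase that activates p53, was 1.32-fold higher and the methyltransferase gene Setd7 1.30-fold higher, while Kmt5a, another methyltransferase that acts on p53, was 1.30-fold lower. Cdkn2a, whose ARF product blocks Mdm2, had 0 counts in all 6 libraries.

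Most genes listed as repressed through p21 rose, while Cdkn1a fell 1.17-fold. Whether p21 holds these genes down in these cells was not tested. Of 26 cell cycle genes known to be repressed by p53 through p21, 19 rose, Cdc25c and Cdc20 fell and 5 did not pass. Their median log2 fold change was 0.27, and 22.6% of all tested genes were called higher. The ribonucleotide reductase gene Rrm2 was 1.90-fold higher (63.9 ± 2.7 to 122 ± 1 CPM, SD, n = 3 each), and the replication helicase genes Mcm5, Mcm3 and Mcm4 were 1.73-fold, 1.55-fold and 1.54-fold higher. Of 15 tested cyclins, kinases and other partners of p21 and its fellow CDK inhibitors, 12 rose, Ccnd2 fell and Cdk6 and Cdkn2d did not pass (median 0.44); without PBS_Tm replicate 2, 2 were lower. Ccnd1, the cyclin that drives entry into the cycle, was 1.56-fold higher (534 ± 7 to 832 ± 10 CPM), Pcna, the replication clamp that p21 binds, also 1.56-fold, and the CDK inhibitor gene Cdkn2c 2.05-fold. Both lists hold Cdk1, Ccna2 and Ccnb1. The genes named here and above because they moved against their list or did not pass were picked after their values were seen.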

How the data were processed

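Bulk RNA-seq counts of 3 EV_Tm and 3 PBS_Tm libraries, grouped by their titles, were analysed. The authors removed adaptors and aligned reads with HISAT2 2.2.1, per the labels' protocols, and used featureCounts 2.0.6, per the submitters' processing notes. The authors deposited raw, whole-number counts for each gene, not normalized. The table also gives other deposited values, the gene start, end and length in bases. The notes name mm39, but of 54409 gene IDs found in GENCODE M21, 98.33% have the start and end they have on GRCm38, so coordinates are read as GRCm38. Whether counting used strand, and how multi-mapping reads were handled, is not given in the sources used here. Dates in place of symbols (27 rows) were replaced through the gene ID, and a symbol shared by IDs was read from the ID with most counts.

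Groups were compared with edgeR 4.0.16 in R 4.3.3 (TMM, filterByExpr, quasi-likelihood F test, two-sided, Benjamini-Hochberg over 16844 genes, call at an adjusted p under 0.05). CPM of tested genes uses TMM-scaled library sizes, and marker sums use plain ones; log2 CPM has a prior count of 2; the SE is the log2 fold change over the root of F. The mean chi-square per gene was 3.70 to 7.72 for libraries of one group, more than sampling noise, and 97.1 to 111 across groups. The fits were tested on simulated data. The alternatives tried were scaling by DESeq2's size factors or by library size, filtering at 1 CPM in 3 libraries or not at all, testing with DESeq2 1.42.0 or limma-voom (limma 3.58.1), adding a replicate block, dropping each library in turn, an adjusted p under 0.01 and a fold of at least 1.5; a median over the other targets and leaving out Sesn1 were added after the values were seen. The 10 genes and all lists were chosen with earlier results of these data known. Named are the 10 genes, all tested shared targets and paralogues, up to 4 genes per other list by smallest p, and for likeness the 3 genes closest to Gdf15 and to Trp53.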

Additional observations from a re-analysis of the deposited data

How the results depend on the processing

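The direction of all 10 genes was the same under every alternative run, and 8 were called lower under every one except the fold minimum. With a fold of at least 1.5 required, 2476 of all 16844 tested genes were called in either direction, in place of 7976. Of the 10 genes 3 were then lower and 0 higher, and of the other p53 targets 11 were lower and 0 higher. Of the p53 regulators 0 were called in either direction. Of the genes listed as repressed through p21 and of the p21 partners, 4 and 5 were higher. Leaving out each library in turn gave 1 to 2 of the 10 genes higher, since the call of Trp53 was lost without EV_Tm replicate 2, 8 lower, and 7080 to 7708 genes called in all. The log2 fold change of Gdf15 ranged from -1.29 to -1.08 over the alternatives, and its difference from the 8 other targets from -0.81 to -0.59, the latter with the median in place of the mean (-0.59) or, without Sesn1, -0.61. That difference is taken from log2 CPM and was not recomputed for other tests or call thresholds. No pairing by equal replicate numbers was seen: the deviations of such libraries from the group means correlated by -0.04, 0.02 and -0.01. The best match of a library was not always its own number. With 3 libraries per group this does not settle whether equal numbers share a culture or day, which the labels do not say. With the replicate number as a block, 7737 genes were called, and 8 of the 10 genes were lower and 2 higher. Depth did not limit the 10 genes, the least abundant of which, Sesn1, had 840 to 1229 counts per library.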

Other observations

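Over the 6 libraries, the genes whose centred log2 CPM lay closest to that of Gdf15, among 11062 genes whose mean log2 CPM was 1 or more, were the potassium channel gene Kcnj4, Shpk, a sugar kinase gene, and Mvd, a gene of sterol synthesis, with root mean square differences of 0.07, 0.07 and 0.09 on the log2 scale. Kcnj4 stood at 46.4 ± 5.5 CPM (SD, n = 3) in PBS_Tm and at 19.3 ± 0.9 CPM in EV_Tm. Closest to Trp53 were Lzts3, Mxd4, a member of the MYC-antagonist MAD family, and Fbxo21, a subunit of a ubiquitin ligase, with differences of 0.02 each. Mxd4 went from 94.8 ± 1.0 to 106 ± 4 CPM and Fbxo21 from 94.1 ± 0.4 to 106 ± 3 CPM.

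Atf3, a stress factor that ATF4, CHOP and p53 are all known to induce, had 2 counts in PBS_Tm replicate 1 and 0 in the other 5 libraries. Ddit3 stood at 301 ± 4 CPM (SD, n = 3) in PBS_Tm. No library without Tm was analysed, so a response of either gene to Tm was not measured. Cdkn2a and its neighbour Cdkn2b, a pair of inhibitors on which many lines depend for arrest, were both at 0 counts in all 6 libraries, while Cdkn2c had 35.4 ± 1.1 CPM in EV_Tm. Trp53-ps, the pseudogene of Trp53, had 195 counts in EV_Tm replicate 1 and 47 to 111 in the other 5 libraries (log2 fold change 0.57, edgeR adjusted p = 0.135). These genes were picked after their counts were seen.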
